A study of Mus musculus with 15 samples.

Results

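The genes described here encode the nuclear subunits of the mitochondrial respiratory chain and of ATP synthase, together with cytochrome c. They were chosen by symbol alone, as genes whose array probe sets carried a single symbol beginning with Ndufa, Ndufb, Ndufc, Ndufs, Ndufv, Uqcr, Atp5, Cox4i, Cox5, Cox6, Cox7 or Cox8, without the Ndufaf assembly factors, plus Sdha, Sdhb, Sdhc, Sdhd, Cyc1 and Cycs. This gave 84 of the 18193 genes measured, read by 174 probe sets, and each gene is represented by its brightest probe set. Complex I has 36 of the genes, complex II 4, complex III 9, complex IV 17 and ATP synthase 17, and Cycs stands alone.

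The samples are acute myeloid leukemia cells of genotype NRASG12V/Mll-AF9, which combine an oncogenic NRAS with an Mll fusion gene and were collected from leukemic spleens. SCID/Beige mice, which are poor in lymphocytes, had received the cells by tail vein and were kept for 20 days, until they had above 100000 white cells per microlitre of blood. The RAS-ON group has 5 arrays of vehicle-treated leukemia at 0 h, and the RAS-OFF groups have 2 arrays each at 48, 60, 72, 84 and 96 h of doxycycline, injected at the start and given in the drinking water from then on, which shuts NRASG12V off. The promoter that drives the transgene, the number of primary leukemias behind the transplants and the age of the mice are not stated in the labels. Every group carries the Mll-AF9 fusion, and all RAS-ON samples are of 0 h. Loss of NRASG12V, doxycycline itself and the later harvest therefore cannot be told apart. The labels number the arrays of a group as replicates without saying that each is its own mouse, so a p-value reflects the spread among the arrays alone, part of which can be technical.

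The respiratory chain sits in the inner mitochondrial membrane. Complexes I and II pass electrons from NADH and succinate to ubiquinone, complex III passes them to cytochrome c, and complex IV hands them to oxygen. Complexes I, III and IV pump protons, and ATP synthase uses the resulting gradient to make ATP. Complex II is also an enzyme of the tricarboxylic acid cycle, and all 4 of its subunits are nuclear genes. Several subunits of complex IV exist as isoforms of different genes, some known from heart and skeletal muscle and others from testis, and acute myeloid leukemia cells are known to rely on respiration.

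All values are log2 intensities, on which a difference of 1 is a doubling, and the median intensity of an array on the linear scale was 149.99 to 156.53. The 5 RAS-ON arrays formed a pair of sets. The SD of the log2 difference over all genes was 0.166 to 0.219 among replicates 1 to 3, 0.169 between replicates 4 and 5, and 0.236 to 0.302 between the sets. RAS-OFF 96 h replicate 1 had a Gapdh 3-prime minus 5-prime difference, a sign of RNA integrity, of 1.22, against 0.1 to 0.35 on the other arrays. Nras itself fell by 0.31 ± 0.09 (SE; limma, adjusted p = 0.00725), from 10.94 ± 0.18 (SD, n = 5) to 10.62 ± 0.17 (n = 10), but with RAS-ON replicates 1 to 3 alone its change was -0.2 (adjusted p = 0.079), and whether its probe sets read the transgene is not stated.

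Transcripts that mark other cell types also moved with the treatment. Of 13 measured erythroid genes 11 rose, and their summed level went from 15.21 to 15.54 on RAS-ON arrays to 16.47 to 16.79 on RAS-OFF arrays, with the alpha globin probe sets Hba-a1 and Hba-a2 dim throughout. Of 11 red pulp macrophage genes 9 rose and 2 fell, and the summed level went from 13.58 to 14.07 up to 14.2 to 14.54. Of 9 myeloid leukemia genes 5 fell and 1 rose, with a median change of -0.25. Their summed level went from 15.67 to 15.92 down to 14.41 to 14.9. The falls were those of the granule genes Mpo (13.90 to 12.59), Prtn3 (13.50 to 11.49), Elane (13.44 to 11.37) and Ctsg (12.98 to 10.32), and of Cd33 (-0.14). Itgam (-0.25), Hoxa9 (-0.24) and Meis1 (0.08) were not called. Ptprc, which encodes CD45 and marks all white cells, went from 13.08 to 13.25. Of 5 lymphocyte genes 2 rose and 1 fell, with summed levels of 9.77 to 10.16 and 10.35 to 10.99; Cd3d went from 8.86 to 10.12, whereas Cd3e and Cd3g stood at 0.01 and 0.03 and the list's median change was 0.03. The part of these shifts in the values below was not tested. In bulk samples such as these, fewer cells of a type and less RNA per cell cannot be told apart.

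After NRASG12V was shut off, 27 of the 84 respiratory genes fell and 6 rose in the mean of the 5 RAS-OFF times against RAS-ON (limma over all genes, Benjamini-Hochberg adjusted p below 0.05). That is 32.1% lower and 7.14% higher, against 28.7% lower and 20.1% higher among all 18193 genes tested. In either direction 39.3% of them were called, against 48.8% of all genes. Measured from all 5 RAS-ON arrays, the share that fell is thus near the background, and the share that rose is below it. The other 51 genes did not pass the test. The median change of the 84 genes was -0.08, with 63 below 0 and 21 above, against a median of -0.041 over all genes. Changes were small: 66 genes moved by less than 0.25 on the log2 scale, and only Cox6b2, Sdhc and Atp5g2 moved by 0.5 or more. Without 3 RAS-OFF arrays said in earlier work on these data to stand apart (replicate 1 at 48, 84 and 96 h), 22 genes fell and 7 rose. Apart from the Gapdh difference of the last, given above, what sets these arrays apart is not shown here. For this setting the share of all genes called was not counted, so these counts have no background to be read against. All 10 RAS-OFF arrays lay below all 5 RAS-ON arrays for 10 genes and above them for 4, where 12% and 9.36% of all genes did so.

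**Figure D1:**
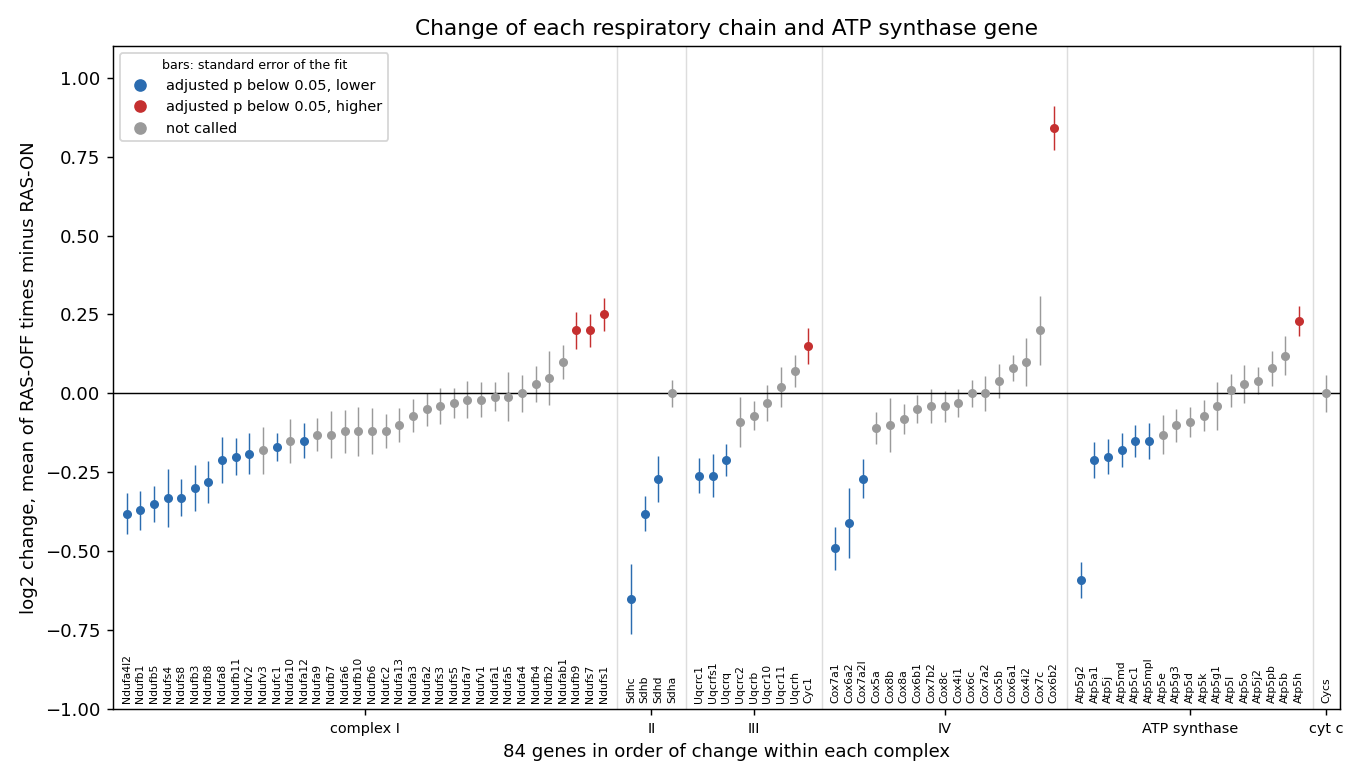
Each point is the log2 change of 1 of the 84 genes, mean of the 5 RAS-OFF times minus RAS-ON, with the standard error of the fit as a bar, ordered by size within each complex; blue and red mark genes past the adjusted p threshold. Most points lie between -0.25 and 0.25, with Cox6b2 at 0.84 the highest, Sdhc at -0.65 and Atp5g2 at -0.59 the lowest.

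Changes ranged more widely within each complex than the medians of the complexes did. The median change was -0.12 for complex I, -0.33 for complex II, -0.07 for complex III, -0.04 for complex IV and -0.09 for ATP synthase. Complex II had 3 of 4 genes lower (75%, against 28.7% of all genes). Its median shift was taken per array relative to the RAS-ON mean of each gene. On all 10 RAS-OFF arrays it lay below every RAS-ON array (-0.591 to -0.099, against -0.048 to 0.066). For ATP synthase this held on 8 of 10 arrays, for complex I on 4, for complex IV on 1 and for complex III on 0. The lowest complex II value, -0.591, came from RAS-OFF 96 h replicate 1, whose Gapdh difference was 1.22. On its partner, 96 h replicate 2, the medians of complex I, complex IV and ATP synthase were 0.033, 0.045 and 0.006.

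**Figure D2:**
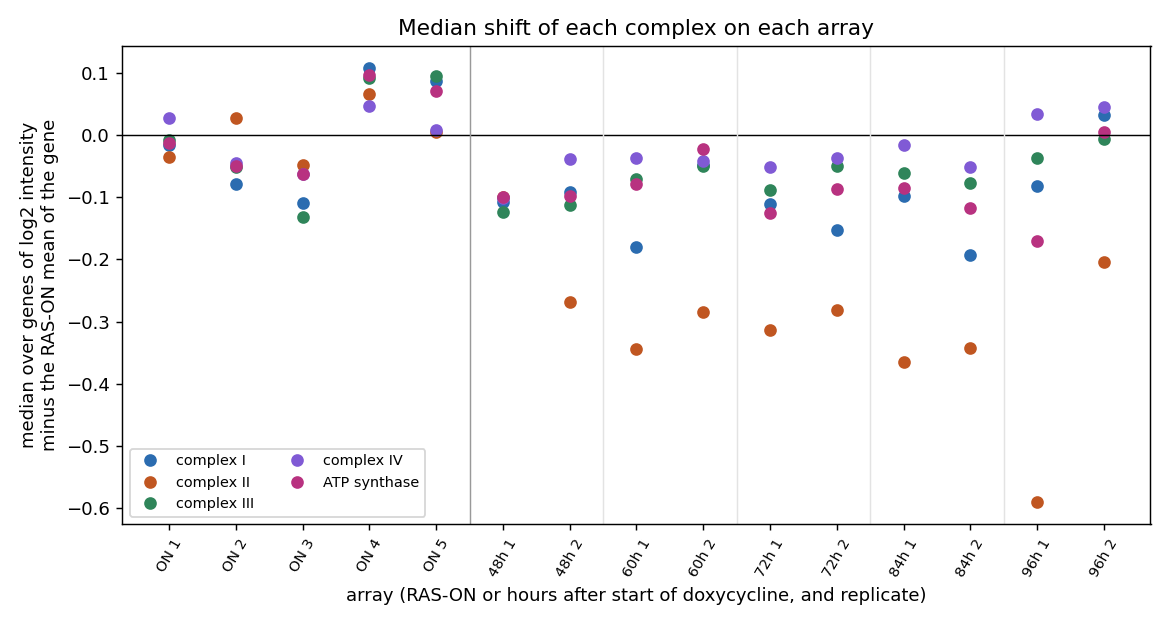
For each of the 15 arrays the points give the median, over the genes of a complex, of the log2 intensity minus the RAS-ON mean of the gene. Complex II lies below every RAS-ON array from 48 h on, RAS-ON replicates 4 and 5 lie above replicates 1 to 3 for complexes I and III and ATP synthase, and the other complexes stay between -0.2 and 0.05 on the RAS-OFF arrays.

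The RAS-ON sets differed in these genes. Replicates 4 and 5 exceeded replicates 1 to 3 in 70 of the 84 genes by a median of 0.12, where the median over all genes was 0.01 and 53.1% of genes lay above 0. The difference was 0.17 for complex I, 0.15 for complex III, 0.14 for ATP synthase and 0.06 for complexes II and IV, and Cycs went the other way at -0.2. Against replicates 1 to 3 alone, 15 of the 84 genes fell and 5 rose (26.8% and 20% of all genes). Against replicates 4 and 5 alone, 33 fell and 2 rose (24.2% and 17.3% of all genes). The share that fell was thus below that of all genes against the first set and above it against the second. The share that rose was below that of all genes against both. The genes called in the same direction against both sets were 14 that fell and 2 that rose. The share of all genes called in this way against both sets was not counted. The median change was -0.04 against the first set and -0.14 against the second, so its size depended on which RAS-ON arrays it was measured from.

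Complex II, succinate dehydrogenase, showed the lowest median of the complexes. Its catalytic dimer is made of Sdha, which binds the flavin and oxidises succinate, and Sdhb, which carries the iron-sulfur clusters; Sdhc and Sdhd anchor it in the membrane and bind haem and ubiquinone. Sdhb read 11.94, 11.93, 11.94, 12.08 and 12.00 on the RAS-ON arrays. Its RAS-OFF values were 11.65 and 11.67 at 48 h, 11.59 and 11.65 at 60 h, 11.57 and 11.60 at 72 h, 11.56 and 11.56 at 84 h, and 11.41 and 11.73 at 96 h. The groups did not overlap, every RAS-OFF array being lower than the lowest RAS-ON array. Sdhb fell by 0.38 ± 0.055 (SE; limma, adjusted p = 4.19e-05) and was called at each of the 5 times.

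Sdhc had the largest fall of the 84 genes. It read 11.01, 11.08 and 10.86 in RAS-ON replicates 1 to 3 and 10.53 and 10.65 in replicates 4 and 5, so the sets stood apart for this gene in the opposite direction to most. At 48 h the arrays read 10.93 and 10.14, and the 8 later arrays lay between 10.02 and 10.21. Replicate 1 at 48 h was thus within the RAS-ON range and the 9 others were below it. The change was -0.65 ± 0.11 (SE; limma, adjusted p = 0.000225), or -0.41 (adjusted p = 0.0283) against RAS-ON replicates 4 and 5 alone. A second Sdhc probe set changed by -0.21, and with the mean of both the change was -0.43 (adjusted p = 0.00024).

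Sdhd, the other anchor, went from 11.70 ± 0.13 (SD, n = 5) to 11.43 ± 0.13 (n = 10), a change of -0.27 ± 0.072 (SE; limma, adjusted p = 0.0054). All 10 RAS-OFF arrays lay below the RAS-ON arrays, the lowest being 96 h replicate 1 at 11.08. This call was lost against RAS-ON replicates 1 to 3 alone (-0.19, adjusted p = 0.0636) and when the second probe set, at 0.00, was averaged in (-0.14, adjusted p = 0.134). Sdha was at 11.49 in both groups (SD 0.05 and 0.06), with a change of -0.00 ± 0.044 (adjusted p = 0.945). The groups thus overlapped for the flavin subunit, while those of its partner Sdhb did not.

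The promoter stretches of these genes are shown because Sdha was not called and its 3 partners were; the differences between the 4 genes were not tested. Each line gives the 150 bases before the RefSeq start on the gene's own strand (GRCm38.p6), 5′ to 3′, with capitals marking a match to the ETS and GABP core CCGGAAG or to the NRF1-type motif spelled GCGCA, any base, GCGC, on either strand. GABP and NRF1 are known as regulators of many nuclear respiratory genes. Sdhc has no entry. The stretches lie at chr13:74350241-74350390 (minus strand, Sdha), chr4:140961121-140961270 (plus strand, Sdhb) and chr9:50603850-50603999 (minus strand, Sdhd).
Sdha: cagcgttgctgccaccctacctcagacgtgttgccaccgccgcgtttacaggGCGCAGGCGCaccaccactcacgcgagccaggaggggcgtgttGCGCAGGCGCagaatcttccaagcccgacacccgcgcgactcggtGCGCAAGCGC
Sdhb: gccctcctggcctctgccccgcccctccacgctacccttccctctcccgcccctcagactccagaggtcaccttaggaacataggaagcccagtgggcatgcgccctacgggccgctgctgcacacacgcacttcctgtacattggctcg
Sdhd: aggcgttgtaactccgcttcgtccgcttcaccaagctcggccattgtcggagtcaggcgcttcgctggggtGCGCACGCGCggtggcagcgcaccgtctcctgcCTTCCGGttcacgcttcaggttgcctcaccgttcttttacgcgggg
Sdha, the gene at -0.00, has 3 matches to the NRF1-type motif in this stretch. Sdhd has 1 match to each motif. Sdhb has none in this stretch and 1 match to the ETS core in its full 300-base window.

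Complex I, NADH dehydrogenase, is the largest of the complexes, with a core that carries the flavin and iron-sulfur clusters and many accessory subunits around it. Among its 36 genes there were 12 falls (33.3%, against 28.7% of all genes) and 3 rises (8.33%, against 20.1%), and 21 genes were not called (range -0.38 to 0.25). The 6 measured core genes split into 2 falls (33.3%), 2 rises (33.3%) and 2 without a call, around a median of -0.03. The 30 accessory genes included 10 falls and 1 rise (33.3% and 3.33%), and their median was -0.12. Against RAS-ON replicates 1 to 3 alone 7 of the 36 genes of the complex fell and 3 rose, where 26.8% and 20% of all genes did. Against replicates 4 and 5 alone 16 fell and 0 rose, where 24.2% and 17.3% of all genes did. The share of the complex that fell was thus below that of all genes from the first set and above it from the second.

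Among the core genes, Ndufs8, an iron-sulfur subunit on the path to ubiquinone, fell by 0.33 ± 0.058 (SE; limma, adjusted p = 0.000224), from 12.42 ± 0.09 to 12.09 ± 0.09, with no overlap and a call at every time. All 6 of its probe sets were lower, at -0.34 to -0.08. Ndufv2, which also holds an iron-sulfur cluster, changed by -0.19 (adjusted p = 0.0266) and was no longer called when RAS-ON replicates 4 and 5 were left out. Ndufs1, the large iron-sulfur subunit, went the other way: its RAS-ON values were 10.23, 10.24, 10.29, 10.40 and 10.29, and its RAS-OFF values ran from 10.41 at the lowest over a median of 10.51 to 10.72 at the highest. Every RAS-OFF array was above every RAS-ON array, and the rise was 0.25 ± 0.052 (SE; adjusted p = 0.00107), or 0.2 (adjusted p = 0.0524) against RAS-ON replicates 4 and 5 alone. Ndufs7, another cluster-bearing core subunit, rose by 0.20 ± 0.053 (adjusted p = 0.00547) with 7 of 10 RAS-OFF arrays above the RAS-ON range. Its second probe set stood at -0.02, and with the mean of both the change was 0.09 (adjusted p = 0.0747). Ndufv1, the flavin subunit, and Ndufs3 changed by -0.02 (adjusted p = 0.751) and -0.04 (adjusted p = 0.638).

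Among the accessory genes, Ndufb1, a subunit of the membrane arm, read 9.0, 8.99, 8.83, 8.97 and 9.07 on RAS-ON arrays and between 8.35 and 8.80 on RAS-OFF arrays. It fell by 0.37 ± 0.061 (SE; limma, adjusted p = 0.000143) without overlap. Ndufb5, also of the membrane arm, fell by 0.35 ± 0.057 (adjusted p = 0.000125), from 11.97 ± 0.05 (SD, n = 5) to 11.62 ± 0.12 (n = 10), again without overlap. Both of its probe sets were lower, at -0.35 and -0.49. Ndufb3 (-0.30) and Ndufb8 (-0.28) of the same arm fell too, and these 4 membrane arm genes and Ndufs8 kept their calls in all 23 alternative settings run. The sizes moved, however: against RAS-ON replicates 1 to 3 alone Ndufb3 was at -0.19 (adjusted p = 0.0434) and Ndufb8 at -0.16 (adjusted p = 0.0319), both were at -0.47 against replicates 4 and 5, and with the mean of probe sets Ndufb8 was at -0.12 (adjusted p = 0.044).

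Ndufs4, an accessory subunit whose loss causes mitochondrial disease, showed how much rested on the RAS-ON arrays. Its values were 10.51, 10.42 and 10.42 in RAS-ON replicates 1 to 3, 10.90 and 10.85 in replicates 4 and 5, and 9.97 to 10.42 on the RAS-OFF arrays. The RAS-OFF arrays thus touched the lower set and lay well under the upper one. The change of -0.33 ± 0.092 (SE; adjusted p = 0.00773) was -0.16 (adjusted p = 0.104) against the first set and -0.59 (adjusted p = 0.000227) against the second. The same held for Ndufb9, a membrane arm subunit, which rose by 0.20 ± 0.058 (adjusted p = 0.00924) with no overlap but had a change of 0.07 (adjusted p = 0.402) against RAS-ON replicates 4 and 5.

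Apart from Ndufa4l2, described next, the remaining accessory genes that fell were Ndufa8, Ndufb11, Ndufc1 and Ndufa12, with changes of -0.21, -0.20, -0.17 and -0.15 and adjusted p of 0.0232, 0.0109, 0.00518 and 0.0333. The calls of Ndufa8, Ndufb11 and Ndufa12 were lost against RAS-ON replicates 1 to 3 alone, where the first 2 were both at -0.10, and Ndufa12 kept its call in 10 of 23 alternative settings. Ndufa9, at -0.13 ± 0.052, was the gene nearest the threshold from outside (adjusted p = 0.0592). Cyc1, at 0.15 ± 0.058, was the nearest from inside (adjusted p = 0.0451).

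Ndufa4 and Ndufa4l2 are named as complex I genes, although the Ndufa4 protein is now known as a subunit of complex IV, and Ndufa4l2 is its hypoxia-inducible relative. Ndufa4 was at 12.44 in both groups, with a change of -0.00 ± 0.06. Ndufa4l2, whose signal was below that of the median gene, read 7.26 to 7.41 on RAS-ON arrays, 7.34 and 6.99 at 48 h, and 6.73 and 6.77 at 96 h. It fell by 0.38 ± 0.065 (SE; limma, adjusted p = 0.000215), with 9 of 10 RAS-OFF arrays under the RAS-ON range.

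Complex III, the cytochrome bc1 complex, had 3 genes lower, 1 higher and 5 not called among its 9 (range -0.26 to 0.15). That is 33.3% lower and 11.1% higher, against 28.7% and 20.1% of all genes. Uqcrc1, a core subunit facing the matrix, read 12.35, 12.28, 12.24, 12.23 and 12.39 on RAS-ON arrays and 11.83 to 12.14 on RAS-OFF arrays. It did not overlap, fell by 0.26 ± 0.056 (SE; limma, adjusted p = 0.00144) and kept its call in all 23 alternative settings. Uqcrfs1, the Rieske iron-sulfur protein that passes electrons on, changed by -0.26 ± 0.069 (adjusted p = 0.0069), but by -0.18 (adjusted p = 0.0757) against RAS-ON replicates 1 to 3 alone. Uqcrq, a small subunit, fell by 0.21 ± 0.051 (adjusted p = 0.0037).

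Cyc1, the haem protein that reduces cytochrome c, went from 12.09 ± 0.05 (SD, n = 5) to 12.24 ± 0.10 (n = 10), with 9 of 10 RAS-OFF arrays above the RAS-ON range. Its call was held in 7 of 23 alternative settings, with adjusted p from 0.00408 to 0.215. The second core gene, Uqcrc2, and the small subunits Uqcrb, Uqcr10, Uqcr11 and Uqcrh had changes from -0.09 to 0.07 and were not called. The median of the complex changed sign with the RAS-ON arrays used, at 0.06 against replicates 1 to 3 and -0.16 against replicates 4 and 5.

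Cycs, the somatic cytochrome c that carries electrons between complexes III and IV and also triggers apoptosis when released, was at 13.38 in both groups (SD 0.11 and 0.08). Its change was 0.00 ± 0.058 (limma, adjusted p = 0.968), with 0 of 10 RAS-OFF arrays below the RAS-ON range and 1 above it. Its other 3 probe sets differed from this reading, at -0.22 and -0.39 for the 2 bright ones and 0.15 for the dim one, and the mean of all probe sets gave -0.11 (adjusted p = 0.0598).

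Of the 17 genes of complex IV, cytochrome c oxidase, 3 were lower, 1 was higher and 13 were not called (17.6% lower and 5.88% higher, below the shares of all genes). Cox6b2, an isoform of subunit VIb known from testis, had the largest change of all 84 genes. It read 10.23, 10.15, 10.28, 10.24 and 10.31 on RAS-ON arrays. The RAS-OFF arrays read 11.24 and 11 at 48 h, 10.97 and 11.07 at 60 h, 11.07 and 11.28 at 72 h, 10.99 and 11.09 at 84 h, and 10.84 and 11.23 at 96 h. The gap between the highest RAS-ON and the lowest RAS-OFF array was wider than the spread within either group. Cox6b2 rose by 0.84 ± 0.069 (SE; limma, adjusted p = 1.4e-07), a 1.78-fold higher intensity, was called at all 5 times and stayed between 0.80 and 0.89 in all 23 alternative settings. The array has 1 probe set for it. The somatic isoform, Cox6b1, had a change of -0.05 ± 0.045 (adjusted p = 0.35).

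The promoter stretches of this isoform pair follow, in the same format, from chr7:4753095-4753244 (minus strand, Cox6b2) and chr7:30626115-30626264 (minus strand, Cox6b1) of GRCm38.p6, since one gene changed and the other did not pass the test.
Cox6b2: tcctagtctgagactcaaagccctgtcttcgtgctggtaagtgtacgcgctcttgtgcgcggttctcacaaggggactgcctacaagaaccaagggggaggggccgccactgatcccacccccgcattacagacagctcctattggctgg
Cox6b1: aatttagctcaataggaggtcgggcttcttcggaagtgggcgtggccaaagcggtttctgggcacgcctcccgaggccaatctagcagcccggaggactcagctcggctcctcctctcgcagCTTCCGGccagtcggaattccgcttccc
Cox6b1 has 1 match to the ETS core, in capitals on the opposite strand, and Cox6b2 has no match to either motif in this stretch or in its full window.

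The falls in complex IV included a pair of muscle isoforms at low signal. Cox7a1, known from heart and skeletal muscle, read 6.33, 5.98, 6.31, 6.09 and 6.07 on RAS-ON arrays and 5.46 to 5.83 on RAS-OFF arrays, without overlap. It fell by 0.49 ± 0.069 (SE; limma, adjusted p = 2.93e-05) and was called at all 5 times. Cox6a2, also a muscle isoform, read 7.37, 7.24 and 6.93 in RAS-ON replicates 1 to 3, 7.71 and 7.71 in replicates 4 and 5, and 6.87 to 7.09 on RAS-OFF arrays. The groups overlapped through replicate 3. Its change was -0.41 ± 0.11 (adjusted p = 0.00485), or -0.2 (adjusted p = 0.0571) against replicates 1 to 3 alone and -0.73 (adjusted p = 3.46e-06) against replicates 4 and 5. Beside these, 4 of 6 striated muscle genes fell (66.7%, against 28.7% of all genes). The summed level of the list went from 9.96 to 10.15 on RAS-ON arrays down to 9.18 to 9.44 on RAS-OFF arrays. Ckm, the muscle creatine kinase, was at -1.37 ± 0.06 (limma, adjusted p = 1.72e-10). The contractile genes Acta1, Myh7 and Tnnt2 changed by -0.34, -0.28 and -0.19 (limma, adjusted p = 0.000801, 0.00111 and 0.00584), and Myh6 and Actn2 were not called. Myh6, Myh7, Actn2 and Tnnt2 were dim in both groups, and the signal of Acta1 was below that of the median gene. The part of muscle RNA in the Cox7a1 and Cox6a2 values was not tested.

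Cox7a2l, known as a factor that joins complexes III and IV into supercomplexes, fell by 0.27 ± 0.062 (SE; limma, adjusted p = 0.00225), from 11.84 ± 0.15 (SD, n = 5) to 11.57 ± 0.14 (n = 10). All 3 of its probe sets were lower, at -0.27, -0.28 and -0.54. The change was -0.17 (adjusted p = 0.0253) against RAS-ON replicates 1 to 3 and -0.42 (adjusted p = 0.000254) against replicates 4 and 5. The isoforms that most tissues use did not pass the test: Cox4i1 stood at -0.03, Cox6a1 at 0.08, Cox7a2 at -0.00 and Cox8a at -0.08. The other tissue isoforms Cox4i2, Cox7b2, Cox8b and Cox8c had changes of 0.10, -0.04, -0.10 and -0.04 and were not called either, and of them Cox4i2, Cox7b2 and Cox8b had signals below that of the median gene. In all, the 15 tissue isoform genes had a median change of -0.04, with 4 falls and 1 rise (26.7% and 6.67%, against 28.7% and 20.1% of all genes).

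**Figure D3:**
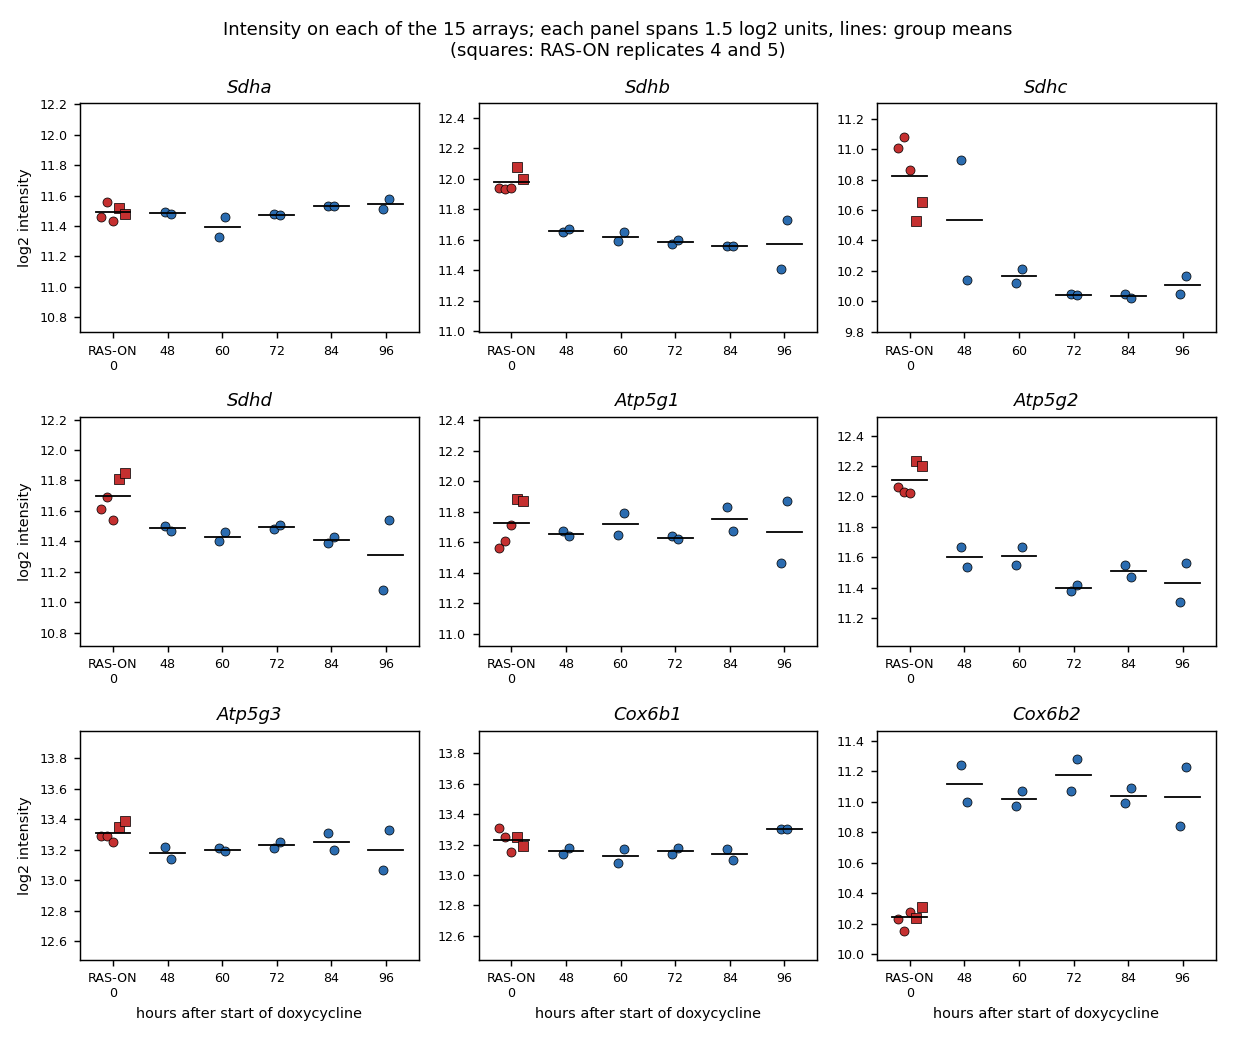
Each panel gives the log2 intensity of 1 gene on all 15 arrays by hours of doxycycline, on axes that all span 1.5 log2 units, with group means as lines and RAS-ON replicates 4 and 5 as squares. Sdhb, Atp5g2 and Cox6b2 separate RAS-ON from every RAS-OFF array, Sdhc does so in 9 of 10, and Sdha, Atp5g1, Atp5g3 and Cox6b1 overlap.

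ATP synthase had 6 genes lower, 1 higher and 10 not called (range -0.59 to 0.23). That is 35.3% lower and 5.88% higher, against 28.7% and 20.1% of all genes. Its c-ring, the rotor that protons turn, is encoded by 3 genes, Atp5g1, Atp5g2 and Atp5g3, whose mature proteins are known to be identical and whose import peptides differ. Only Atp5g2 of the 3 was called. Atp5g2 read 12.06, 12.03, 12.02, 12.23 and 12.20 on RAS-ON arrays. On RAS-OFF arrays it read 11.67 and 11.54 at 48 h, 11.55 and 11.67 at 60 h, 11.38 and 11.42 at 72 h, 11.55 and 11.47 at 84 h, and 11.31 and 11.56 at 96 h. The groups were clear of each other at every time. It fell by 0.59 ± 0.058 (SE; limma, adjusted p = 8.53e-07), and its other 2 probe sets, both dim, stood at -0.26 and -0.30, so that the mean of all 3 gave -0.39 (adjusted p = 2.16e-06). Atp5g1 changed by -0.04 ± 0.075 (adjusted p = 0.663) and Atp5g3 by -0.10 ± 0.052 (adjusted p = 0.125). The differences between the 3 genes were not tested.

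The promoter stretches of the c-ring genes are given for the same reason, from chr11:96075632-96075781 (Atp5g1), chr15:102671048-102671197 (Atp5g2) and chr2:73911327-73911476 (Atp5g3) of GRCm38.p6, all on the minus strand.
Atp5g1: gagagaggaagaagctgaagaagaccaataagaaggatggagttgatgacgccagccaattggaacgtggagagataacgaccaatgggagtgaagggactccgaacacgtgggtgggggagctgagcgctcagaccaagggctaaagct
Atp5g2: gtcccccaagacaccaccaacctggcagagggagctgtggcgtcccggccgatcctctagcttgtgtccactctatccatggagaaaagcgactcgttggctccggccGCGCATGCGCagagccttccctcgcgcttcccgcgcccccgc
Atp5g3: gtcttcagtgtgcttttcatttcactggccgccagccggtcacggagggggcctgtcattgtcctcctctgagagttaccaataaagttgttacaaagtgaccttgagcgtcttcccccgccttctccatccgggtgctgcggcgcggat
Atp5g2, the gene that fell, has 1 match to the NRF1-type motif, Atp5g3 has an NRF1-type match elsewhere in its full window, and Atp5g1 has no match to either motif.

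In the F1 head, where ATP is made, 2 of 5 genes fell (40%, against 28.7% of all genes) and the median was -0.13. Atp5a1, the alpha subunit, went from 13.02 ± 0.08 (SD, n = 5) to 12.81 ± 0.09 (n = 10) without overlap, a change of -0.21 ± 0.056 (SE; limma, adjusted p = 0.00681). Its 3 probe sets disagreed, at -0.21, -0.08 and 0.29, their mean gave -0.00, and the call was lost against RAS-ON replicates 1 to 3 alone (adjusted p = 0.0709). Atp5c1, the gamma subunit that forms the shaft, changed by -0.15 (adjusted p = 0.0201) and lost its call against the same arrays. Atp5b, the catalytic beta subunit, had a change of 0.12 ± 0.061 (adjusted p = 0.123).

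Outside the head, Atp5h, a subunit of the peripheral stalk that holds the head still, rose. It read 12.98, 12.93, 12.93, 13.03 and 13.01 on RAS-ON arrays and 13.04 to 13.34 on RAS-OFF arrays, all 10 above the RAS-ON range. The rise was 0.23 ± 0.047 (SE; limma, adjusted p = 0.000947), both probe sets were higher, at 0.23 and 0.17, and the call held in all 23 alternative settings. Atp5j, another stalk subunit, fell by 0.20 ± 0.055 (adjusted p = 0.00867) with no overlap, and so stood opposite to its stalk partner, although against RAS-ON replicates 1 to 3 alone its change was -0.14 (adjusted p = 0.0827). The small membrane subunits Atp5md and Atp5mpl changed by -0.18 (adjusted p = 0.0137) and -0.15 (adjusted p = 0.0447), and both calls were lost against RAS-ON replicates 1 to 3 alone. The other stalk and membrane genes Atp5pb, Atp5o, Atp5l, Atp5k and Atp5j2 had changes between -0.07 and 0.08 and were not called.

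Across the time course the counts of called genes were 9 at 48 h (10.7% of the 84, against 27.4% of all genes), 10 at 60 h (11.9%, against 25.8%), 18 at 72 h (21.4%, against 31.8%), 20 at 84 h (23.8%, against 36.8%) and 20 at 96 h (23.8%, against 37.6%). Measured from all 5 RAS-ON arrays, the share of respiratory genes called was below that of all genes at each time. Of these, 8, 9, 15, 16 and 15 were lower in order of time. That is 9.52, 10.7, 17.9, 19.0 and 17.9% of the 84, against 13.7, 14.2, 18.3, 21.8 and 20.9% of all genes. Those higher were 1, 1, 3, 4 and 5, or 1.19, 1.19, 3.57, 4.76 and 5.95%, against 13.7, 11.5, 13.4, 15 and 16.7%. The shortfall was thus larger among the rises than among the falls. Each time rests on 2 arrays and all share the same RAS-ON arrays, so the counts are not independent. Without 1 of its own arrays the count was 4 at 48 h with either array left out, 4 and 5 at 60 h, 9 and 7 at 72 h and 8 and 10 at 84 h, for replicates 1 and 2 in turn, and 9 at 96 h without replicate 1. The 48 h count was also 5 without RAS-ON replicate 4 or 5. The share of all genes called with an array left out was not counted. Measured from RAS-ON replicates 4 and 5 alone the share was near that of all genes at each time. There 27 genes were called at 48 h (32.1%, against 31.5% of all genes), 24 at 60 h (28.6%, against 28.1%), 27 at 72 h (32.1%, against 33.1%), 32 at 84 h (38.1%, against 36.9%) and 29 at 96 h (34.5%, against 37.2%). From replicates 1 to 3 alone the counts were 6 (7.14%, against 29.5% of all genes), 8 (9.52%, against 29.1%), 14 (16.7%, against 35.2%), 17 (20.2%, against 39.5%) and 15 (17.9%, against 39.9%) in order of time.

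The genes called at all 5 times were Ndufs8, Sdhb, Cox7a1, Cox6b2 and Atp5g2. In all, 27 genes were called at 1 or more of the times. The shares of all genes called at all 5 times, or at 1 or more of them, were not counted. The medians of the 84 genes were -0.11, -0.07, -0.09, -0.10 and -0.02 from 48 to 96 h, against -0.067, -0.024, -0.051, -0.045 and -0.027 over all genes.

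**Figure D4:**
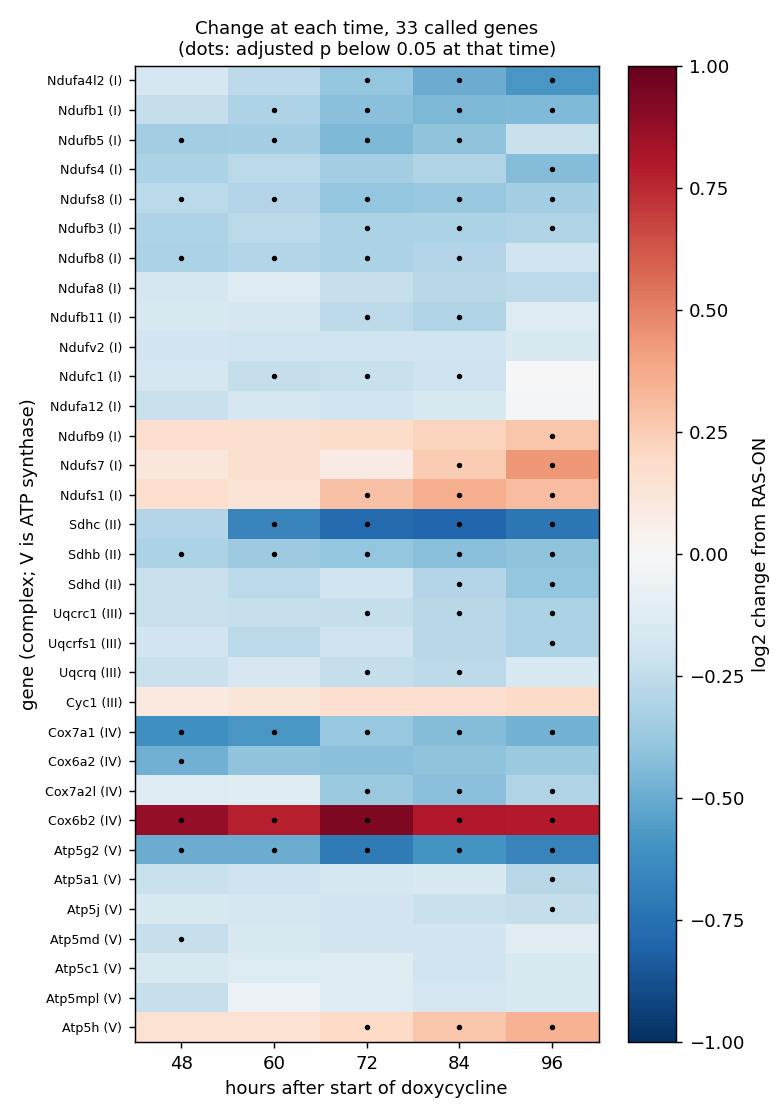
Colours give the log2 change from RAS-ON at each RAS-OFF time for the 33 genes called in the mean of all times, with dots where the adjusted p at that time was below 0.05. Cox6b2 was at 0.78 to 0.93 and Atp5g2 at -0.71 to -0.50 throughout, whereas Ndufa4l2 went from -0.17 at 48 h to -0.58 at 96 h.

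The slope over the 5 RAS-OFF times, which leaves the RAS-ON arrays out of the change itself, called 2 of the 84 genes, 1 falling and 1 rising (2.38%, against 13.7% of all genes, 8.75% falling and 5% rising). Ndufa4l2 fell by 0.11 ± 0.027 per 12 h (SE; limma, adjusted p = 0.0159), with changes from RAS-ON of -0.17, -0.26, -0.39, -0.50 and -0.58 in order of time. Ndufs7 rose by 0.07 ± 0.022 per 12 h (adjusted p = 0.0375), with changes of 0.11, 0.16, 0.08, 0.25 and 0.43. Both calls rested on single arrays: without RAS-OFF 48 h replicate 1 the slope was -0.07 (adjusted p = 0.174) for Ndufa4l2 and 0.06 (adjusted p = 0.245) for Ndufs7, and without 96 h replicate 1 the adjusted p was 0.073 and 0.126. The Ndufs7 call was lost as well without 60 h replicate 1, either array at 72 h, 84 h replicate 1 or 96 h replicate 2, with adjusted p of 0.051 to 0.0858. Atp5h stepped from 0.15 at 48 h to 0.35 at 96 h without passing the slope test, and Sdhb stayed between -0.42 and -0.32.

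Probe sets other than the brightest gave a second reading for 50 of the 84 genes. Of the 33 called genes 19 had several probe sets, and in 14 of them all probe sets pointed the same way. They disagreed for Ndufb8, Ndufa12, Ndufs7, Sdhd and Atp5a1. The other 14 called genes had 1 probe set. The calls that held in every alternative setting run were 12 falls, those of Atp5g2, Cox7a1, Ndufa4l2, Ndufb1, Ndufb3, Ndufb5, Ndufb8, Ndufs8, Sdhb, Sdhc, Uqcrc1 and Uqcrq, and the rises of Cox6b2 and Atp5h. Many of these genes are known to have processed pseudogenes, which their probe sets may also read. The share of all genes whose calls held in every setting was not counted.

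The promoters were searched for sequence features that the choice by symbol did not use. RefSeq windows of 300 bases (250 before and 50 after the start, GRCm38.p6) were at hand for 68 of the 84 genes, and most of them held neither motif. The ETS and GABP core CCGGAAG was found on either strand in 17 of the 68 genes (25%), against 9.93% of 27025 genes in the table. The NRF1-type motif (GCGCA, any base, GCGC) was found in 15 (22.1%), against 5.19%, and its form with T as that base in 4 (5.88%), against 1.07%. The last motif is a case of the one before, so those counts overlap. Both the ETS core and the NRF1-type motif were in 4 genes (5.88%, against 1.01%). By call, each motif was in 5 of 21 genes that fell (23.8%), in 1 of 3 that rose, and in 11 (25%) and 9 (20.5%) of 44 that were not called. A match is a run of letters and does not show that a factor binds there. The 27025 genes were not limited to the 18193 measured, and they were not matched to the respiratory genes for signal or base composition. Of the 84 genes, 77 were brighter than the median gene. Whether other bright genes, or promoters of like base composition, hold these motifs as often was not tested.

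The subunits are put together by dedicated assembly factors. The 44 measured had a median change of -0.12, and 19 of them fell (43.2%, against 28.7% of all genes) and 5 rose (11.4%, against 20.1%). Cox11, which inserts copper into complex IV, rose by 0.75 ± 0.05 (SE; limma, adjusted p = 9.82e-09), and Ndufaf1, a complex I assembly factor, rose by 0.63 ± 0.07 (adjusted p = 2.13e-06). Cox10, which makes the haem of complex IV, fell by 0.68 ± 0.05 (adjusted p = 9.73e-08), and Ndufaf6 fell by 0.71 ± 0.07 (adjusted p = 1.3e-06). Assembly factors of the same complex thus moved in opposite directions. With the mean of probe sets the changes of Cox11 and Cox10 were 0.32 and -0.42. Sdhaf1, which helps load iron-sulfur clusters into Sdhb, fell by 0.68 ± 0.09 (adjusted p = 1.54e-05), beside the fall of Sdhb itself, and was chosen for mention after its value was seen.

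Atpif1, the inhibitor that stops ATP synthase from running backwards, rose from 12.01 ± 0.13 (SD, n = 5) to 12.74 ± 0.17 (n = 10) with no overlap, by 0.73 ± 0.06 (SE; limma, adjusted p = 1.37e-07). It is also known for its part in haem synthesis in erythroid cells, and the erythroid genes given above rose in the same arrays; their part in this value was not tested. Higd2a and Higd1a, small proteins that associate with the respiratory complexes, changed by -0.21 (adjusted p = 0.00724) and -0.13 (adjusted p = 0.0454), and both calls were lost against RAS-ON replicates 1 to 3 alone. Of the subunits encoded by mitochondrial DNA, ND5 of complex I was the one measured, at 13.67 ± 0.18 in RAS-ON and 13.55 ± 0.22 in RAS-OFF (change -0.12 ± 0.08, adjusted p = 0.235). Over the RAS-OFF times ND5 fell by 0.12 ± 0.032 per 12 h (adjusted p = 0.0281), where Atpif1 rose by 0.11 ± 0.025 (adjusted p = 0.00975).

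The tricarboxylic acid cycle supplies the chain with NADH and succinate. Of 18 of its genes and those of pyruvate entry 11 fell and 2 rose (61.1% and 11.1%, against 28.7% and 20.1% of all genes), with a median of -0.19. Idh2, the mitochondrial NADP isocitrate dehydrogenase, fell by 0.81 ± 0.09 (SE; limma, adjusted p = 1.89e-06), or by 0.42 with the mean of probe sets, and Fh1, fumarate hydratase, which takes the product of complex II, fell by 0.50 ± 0.05 (adjusted p = 1.49e-06). Pcx, pyruvate carboxylase, rose by 0.78 ± 0.08 (adjusted p = 1.35e-06) and Dlst, of the oxoglutarate dehydrogenase complex, by 0.20 ± 0.05 (adjusted p = 0.00302), or 0.32 with the mean of probe sets and 0.14 (adjusted p = 0.12) with the replicate block. Of 7 other enzymes that give electrons to ubiquinone 5 fell (71.4%, against the same 28.7% of all genes) and 0 rose, with a median of -0.23. Chdh, choline dehydrogenase, went from 9.51 ± 0.16 to 7.86 ± 0.20 and fell by 1.66 ± 0.08 (adjusted p = 7.37e-10), and Etfb, an electron transfer flavoprotein subunit, fell by 0.70 ± 0.08 (adjusted p = 6.99e-06).

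Of 9 adenine nucleotide, phosphate and outer membrane carrier genes and uncouplers 4 fell (44.4%, against 28.7% of all genes) and 0 rose (against 20.1%), with a median of -0.13. Slc25a4, the ADP and ATP carrier isoform of heart and muscle, fell by 0.80 ± 0.07 (SE; limma, adjusted p = 2.55e-07), and Vdac2, an outer membrane channel, fell by 0.40 ± 0.06 (adjusted p = 3.23e-05). The 21 regulators of mitochondrial biogenesis had a median change of -0.01, with 7 falls and 6 rises (33.3% and 28.6%, against 28.7% and 20.1%). Tfb1m, a mitochondrial ribosomal RNA methyltransferase, rose by 0.45 ± 0.07 (adjusted p = 7.91e-05) and Tfb2m, the transcription factor related to it, fell by 0.44 ± 0.09 (adjusted p = 0.000965), a change of -0.28 against RAS-ON replicates 1 to 3 alone and -0.67 against replicates 4 and 5. Gabpb2 (0.56) and Esrra (-0.33) were called on their brightest probe sets and lost their calls in the mean of probe sets, at 0.09 and -0.13. Of the factors whose motifs were counted in the promoters, Gabpa was at 0.01 ± 0.08 and Nrf1 rose by 0.27 ± 0.06 (limma, adjusted p = 0.00212). Gabpb1, listed with Gabpa and Gabpb2, fell by 0.25 ± 0.07 (limma, adjusted p = 0.00892). The coactivator Ppargc1a was dim and at 0.02. Gabpa, Gabpb1, Nrf1 and Ppargc1a were named after their values were seen.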

How the data were processed

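RNA of leukemic spleen cells was hybridised to Affymetrix mouse arrays (15 arrays). The authors' deposited table holds 1 intensity per probe set and array on a linear scale, made with RMA, per the submitters' processing notes; neither a version nor its options are named there. RMA makes the arrays alike in distribution, so a shift of most genes one way would not show. The log2 of each deposited intensity was taken. Of 45101 probe sets, 34945 had 1 gene symbol in the platform annotation, 932 had several and 9224 had none or were controls; 34741 of the first matched a RefSeq gene and 0 symbols changed. Each of 18193 genes took its brightest probe set. No dim genes were left out.

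Groups came from the sample titles. limma 3.58.1 in R 4.3.3 fitted 1 mean per group with default eBayes, and two-sided p-values were corrected with the Benjamini-Hochberg method across the 18193 genes, with calls at an adjusted p below 0.05. RAS-ON was subtracted from the average of the RAS-OFF groups and from each of them, and a slope per 12 h was taken across RAS-OFF times. A change carries its standard error; the SD of a RAS-OFF level covers 10 arrays and so the differences between times. Arrays of one group correlated at 0.987 to 0.997; the labels name no batch. In simulated data for 18193 genes, 100 were changed by 0.5 in the RAS-OFF mean and 100 had a slope of 0.25 per 12 h. Of these, 79% and 92% were recovered, with 4 and 9 others called. The noise was drawn independently for each array, without the sets of RAS-ON arrays. Most changes and the called slopes of the respiratory genes were smaller than the simulated sizes, so the rates do not apply to them. Arrays give no depth, and their number limits the precision.

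The genes, the other gene lists and the alternative settings were chosen with earlier results of these data known. Genes described singly were the 4 largest called falls and 3 largest called rises of complexes I, III and IV and ATP synthase, all of complex II, Cycs, the isoform and c-ring genes, the steepest slopes, the genes nearest the threshold, up to 2 rises and 2 falls of each other list, and Nras; further genes were named after their values were seen. Alternatives were leaving out the dimmest 40% of genes, the mean of probe sets, centring arrays on their medians, trend and robust eBayes, the replicate number as a block, each set of RAS-ON arrays alone, 3 RAS-OFF arrays left out, and each array left out in turn; with 1 array of a time left, its spread was taken from the other groups. Promoter windows came from RefSeq (GRCm38.p6).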

Additional observations from a re-analysis of the deposited data

Results flagged for a closer look

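Among the 5 RAS-ON arrays, Cox10, the haem synthesis enzyme of complex IV assembly, read 9.35 in replicate 5, the highest and far from the others by Dixon's test, which about 1 in 20 groups would meet by chance. The slope over RAS-OFF times differed from 0 for Ndufa4l2, at -0.11 per 12 h, and for Ndufs7, at 0.07 per 12 h, so that their changes from RAS-ON differed between times. Both slopes rested on single arrays, as given with their values above.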

How the results depend on the processing

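Arrays give no depth; 7 of the 84 genes had signals below that of the median gene, where a change is less certain. Over the 23 alternatives, named genes kept direction and call for 1220 changes, lost the call in 60, gained it in 7 and changed sign in 41; every sign change was in a gene not called and near 0. Genes falling: 15 with RAS-ON 1 to 3. Genes rising: 2 with RAS-ON 4 and 5. With a replicate block, the genes that fell were 14, those called at 48 h 5 and the complex II median -0.28; RAS-ON replicates 3 to 5 have no same-numbered RAS-OFF array, so this fit takes the RAS-ON level from replicates 1 and 2. Deviations from the group means correlated at -0.23 to 0.22 among arrays numbered 1 and -0.24 to 0.22 among those numbered 2 (medians -0.05 and -0.07). In a group of 2 arrays the deviations mirror each other, so the RAS-OFF parts of these ranges are the same values. No strong correlation by number was seen, which does not settle whether the arrays are paired. The complex II median was -0.26 with the mean of probe sets and with RAS-ON 1 to 3, and -0.41 with RAS-ON 4 and 5; complex III was 0.06 with RAS-ON 1 to 3. Called genes at 48, 60 and 84 h were 27, 24 and 32 with RAS-ON 4 and 5; without the 3 RAS-OFF arrays they were 4, 8 and 8 at 48, 84 and 96 h, with 0 rising and 0 falling slopes. Falling slopes were 0 without the dimmest genes, where Ndufa4l2 was not tested, and 2 with the mean of probe sets or either RAS-ON set; rising slopes were 0 with the mean of probe sets and 2 with trend and robust eBayes. The share of all genes called was counted with each RAS-ON set alone, slopes aside. It was counted in no other alternative, including those that leave out 1 array, so those counts have no background to be read against. The cause of these differences was not tested.

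Leaving out 1 array gave 22 to 31 falls, 5 to 8 rises, 4 to 13 calls at 48 h, 4 to 14 at 60 h, 7 to 21 at 72 h, 8 to 26 at 84 h, 9 to 24 at 96 h, 0 to 2 rising and 0 to 2 falling slopes, and medians of -0.15 to -0.08 (complex I), -0.36 to -0.29 (II), -0.1 to -0.02 (III), -0.05 to -0.02 (IV) and -0.1 to -0.08 (ATP synthase). Sign changes were Atp5g1 0.01, Cox8c 0.04, Cycs -0.11 and Sdha 0.06 with the mean of probe sets; Cycs -0.02 with centring; Atp5g1 0.10, Cox7a2 0.06, Cycs -0.08 and Ndufa4 0.09 with the block; Atp5g1 0.06, Cox4i1 0.01, Cox7a2 0.07, Cycs -0.08, Ndufa4 0.10 and Sdha 0.00 with RAS-ON 1 to 3; Cox8b 0.03 with RAS-ON 4 and 5; Cox7a2 0.00, Ndufa4 0.00 and Sdha 0.00 without the 3 RAS-OFF arrays; and, with 1 array out, Cox7a2 -0.04 to 0.03, Cycs -0.03 to 0.03, Ndufa4 -0.03 to 0.05 and Sdha -0.02 to 0.01.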
